A study of Mus musculus with 28 samples.

Results

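The 9 genes described here encode parts of the synaptonemal complex (Sycp1, Syce1, Syce2 and Tex12) and proteins that turn meiotic recombination intermediates into crossovers (Msh4, Msh5, Hfm1, Tex11 and Mlh3). They were taken by name from a chosen list, and all 9 were found among the 43280 features of the deposited count tables. All 9 also passed the expression filter, which kept 17519 genes. Their RNA was followed in germ cells of mice with and without a working Stra8 gene over 7 times after retinoic acid.

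The series profiled sorted germ cells by polyA RNA sequencing to follow spermatogonia on their way to meiosis, with Stra8 present (WT) or knocked out (KO). All mice came from a background of C57BL/6 x 129s4/SvJae, and all of them, WT and KO alike, had first been given WIN 18,446, a drug that blocks retinoic acid synthesis and so holds spermatogonia before differentiation, over 7 days. Testes were taken at that point (0 h) or 12, 18, 48, 72, 96 or 120 h after an injection of retinoic acid, and germ cells positive for PIWIL2-eGFP were isolated by sorting. Each of the 14 combinations of genotype and time had 2 libraries, 28 in all. The sources used here do not state the kind of Stra8 knockout allele or the ages of the mice. The labels do not say that the libraries of a group came from separate animals, so the p-values reflect the spread among libraries, which may be technical.

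During meiotic prophase, homologous chromosomes are joined along their length by the synaptonemal complex, a protein zipper. SYCP1 forms its transverse filaments, SYCE1 belongs to its central element where the SYCP1 ends meet, and SYCE2 binds TEX12 to build the fibres that let the central element grow. MSH4 and MSH5 form a clamp that holds recombination intermediates, HFM1 is a DNA helicase and TEX11 an X-linked protein of the same crossover pathway, and MLH3 takes part in resolving intermediates into crossovers. STRA8 is a retinoic acid-induced transcription factor of germ cells that, with its partner MEIOSIN, is needed for the start of the meiotic programme. The proteins of these 9 genes act in spermatocytes, a later stage than the spermatogonia that were held back by WIN 18,446.

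The windows just before the start sites of these genes are shown first, because transcription factors such as STRA8 act at promoters. Promoter windows (250 bases before to 50 after the start, RefSeq, build GRCm38.p6) were found for 8 of the 9 genes, all but Tex11. Exact matches to 4 motifs were looked for on both strands. The E-box CACGTG, a binding site of the MGA and MAX proteins, was found in 3 of the 8 genes, Sycp1, Syce2 and Tex12, and in 8.09% of all 27025 genes with a window. These were 3 of the 4 synaptonemal complex genes, and in each the E-box began between 94 and 88 bases before the RefSeq start of its window. Syce2 has a further RefSeq start just after chr8:84872110, and its E-box lies past that start, inside the gene span given below. For Tex12 the GENCODE start lies nearer to the E-box than the RefSeq start does. The stretches below are written 5′ to 3′ on the gene's strand with the motif in capitals.
Sycp1, chr3:102936178-102936205, minus strand: agagaacccggCACGTGggaagggaaat
Syce2, chr8:84872159-84872186, plus strand: gtttcattcagCACGTGctcggggcggg
Tex12, chr9:50561345-50561372, minus strand: cgcgagactgtCACGTGgctcgcgcgct

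CNCCTCAG, a motif reported for STRA8 and MEIOSIN, was found in 5 of the 8 genes and in 9.12% of all genes with a window. It occurred in Sycp1, Syce2, Tex12, Msh5 and, at 2 places, Hfm1. It was not among the letters of these windows of Syce1, Msh4 and Mlh3. Counted from the RefSeq start of the window, the match of Tex12 began 7 bases and that of Syce2 39 bases before it. That of Sycp1 began at base 33 after the start. All of the matches lie inside the gene spans of the GENCODE annotation given below, so their place relative to the start depends on the start used. Those of Hfm1 began 66 and 6 bases before the RefSeq start, the second reaching past it. All but the second of Hfm1 read in the opposite direction to the gene, so that the capitals show the reverse complement.
Sycp1, chr3:102936051-102936079, minus strand: tccaggaggttCTGAGGGGaagctcacgg
Syce2, chr8:84872208-84872237, plus strand: cgcagagggcgCTGAGGCGggaaaagacgg
Tex12, chr9:50561257-50561286, minus strand: gtgctgcggctCTGAGGCGgcaggtcgtgg
Msh5, chr17:35046686-35046715, minus strand: gatcgtcgcggCTGAGGTGacggaaaaggc
Hfm1, chr5:106925938-106925967, minus strand: cggcctgaggcCTGAGGCGcaccgtgcggt
Hfm1, chr5:106925878-106925907, minus strand: cgcatgcgcgtCGCCTCAGcctcccgcccg

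TTCCCGC, an E2F-type core, was found in 3 of the 8 genes, Syce2, Tex12 and Msh5, and in 5.29% of all genes with a window. All of these matches read opposite to the gene, and that of Syce2 overlaps its CNCCTCAG match. AGGTCA, a site of nuclear receptors such as those for retinoic acid, was in none of the 8 windows and in 18.1% of all genes. The stretch before Tex12 that holds no annotated exon (193 bases) carries both the E2F-type core and the E-box, in capitals in that order. A match describes the letters only, and no binding was measured here.
Tex12, chr9:50561326-50561518, minus strand: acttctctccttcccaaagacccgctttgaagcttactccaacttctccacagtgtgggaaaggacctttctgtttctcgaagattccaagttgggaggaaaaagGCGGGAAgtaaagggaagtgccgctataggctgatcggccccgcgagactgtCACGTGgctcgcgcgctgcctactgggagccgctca

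In the GENCODE annotation of GRCm38 the genes lie on 8 chromosomes: Sycp1 at chr3:102818499-102936100, Msh4 at chr3:153857149-153906138, Hfm1 at chr5:106840192-106926321, Syce1 at chr7:140777229-140787852, Syce2 at chr8:84872111-84888221, Tex12 at chr9:50556819-50561325, Mlh3 at chr12:85234520-85270599, Msh5 at chr17:35028605-35046745 and Tex11 at chrX:100838648-101059667. Syce2 is on the plus strand and the others on the minus strand. Exons of 8 of the genes overlapped no other annotated gene, and 1.81% of the exon bases of Msh4 overlapped Gm24395 on the plus strand.

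WT libraries held 5757921 to 10147341 reads in genes and KO libraries 914126 to 9517360. In the KO groups at 72, 96 and 120 h the library of the second count table had only 1079696, 914126 and 1031189 reads, and a member's value there rested on 9 to 210 reads, against 26 to 3535 elsewhere. Stra8 was lower in both KO than in both WT libraries at all 7 times: it ranged from 7.65 to 1042 CPM (reads scaled to a common library total) in WT and from 0 to 62.1 CPM in KO, where 1 library at 48 h held 417 reads and the highest level. Germ cell markers (Ddx4, Dazl, Piwil2, Mael and Tex101) summed to 2212 to 4718 CPM in WT and 3328 to 4102 CPM in KO. The summed markers of spermatids reached no more than 1.80 CPM in WT and 2.34 CPM in KO, with Tnp2 at 0 in all libraries. Pachytene spermatocyte markers summed to 66.1 to 121 CPM in WT and 56.9 to 98.8 CPM in KO, of which Tbpl1 had the highest mean.

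All 9 genes were already read at 0 h, before retinoic acid, in both genotypes. Per kilobase of exon, Syce1 and Sycp1 had the highest WT medians, 65.1 and 61.0 CPM per kilobase, followed by Tex11 at 40.1, Syce2 at 29.4 and Tex12 at 15.7. Mlh3 at 5.44, Hfm1 at 5.05, Msh5 at 2.74 and Msh4 at 2.03 were lowest. The ranges of the 14 WT libraries of neighbours in this order overlapped, except those of Tex12 and Mlh3: the lowest value of Tex12 was 7.31 and the highest of Mlh3 6.86. The WT medians of the structural genes and Tex11 were above those of the 4 other crossover genes, while single libraries overlapped, as the highest value of Hfm1 was 8.78.

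**Figure D1:**
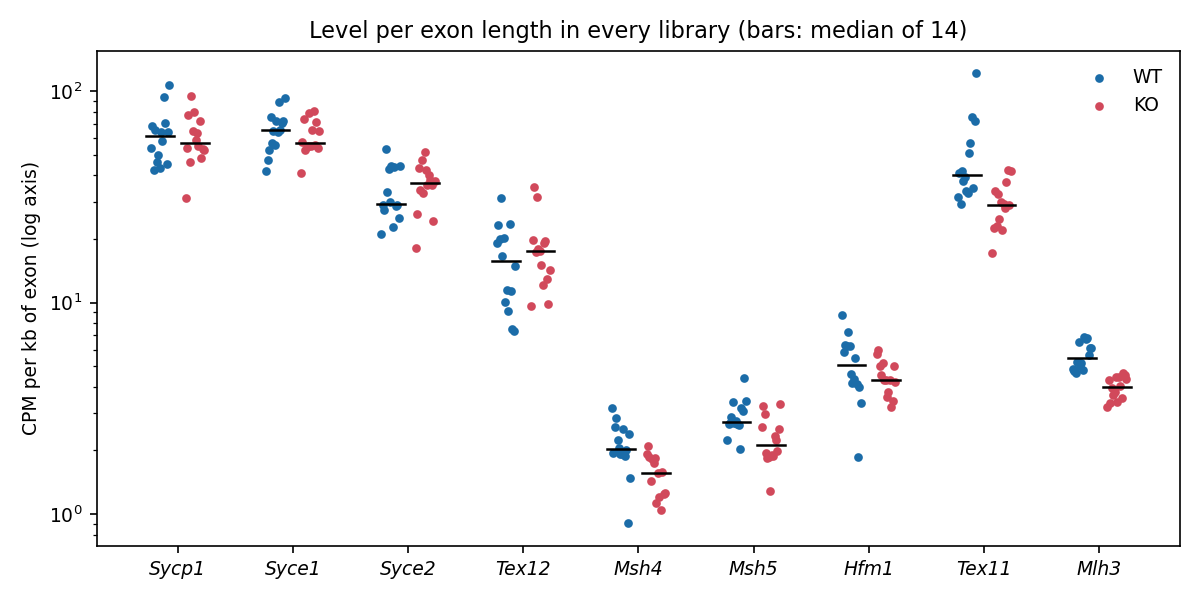
Level of each gene per kilobase of exon (CPM per kb, log axis) in each of the 28 libraries, WT in blue and KO in red, with a bar at the median of the 14 libraries. Syce1 and Sycp1 lie highest (WT medians 65.1 and 61.0) and Msh4 lowest (2.03).

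Over the WT time course, the crossover gene Tex11 had the largest log2 fold change of the 9 at 120 h, Syce1 rose, and the helicase gene Hfm1 fell. Tested for any change over the 7 times (edgeR quasi-likelihood test, Benjamini-Hochberg adjusted over all 17519 genes, threshold 0.05), 3 of the 9 passed in WT, where 37.3% of all genes did. These were Tex11 (adjusted p = 0.00161), Hfm1 (adjusted p = 0.00428) and Syce1 (adjusted p = 0.0426). The share of members was near that of all genes. The call of Syce1 held in DESeq2 (adjusted p = 0.0387). It was lost in edgeR with DESeq2 size factors, with WT fitted alone, and without the 3 KO libraries of low depth. Tex11 and Hfm1 passed in each of these.

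Tex11 stood at 114 and 149 CPM at 0 h in WT. It stood at 106 and 152 CPM at 12 h, 137 and 142 CPM at 18 h, and 122 and 119 CPM at 48 h. It then read 185 and 207 CPM at 72 h, 272 and 127 CPM at 96 h, and 261 and 440 CPM at 120 h. Both libraries at 72 h and both at 120 h lay above all 8 libraries of the first 48 h. At 96 h the first library, at 272 CPM, was also above these 8, and the second, at 127 CPM, was among them. At 120 h against 0 h the log2 fold change was 1.47 ± 0.32 (SE, n = 2 per group; adjusted p = 0.00159, edgeR). Without the second 120 h library, the highest of all, it was 0.96 with an adjusted p of 0.0538.

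Hfm1 moved the other way. In WT it read 58.7 and 38.9 CPM at 0 h, 42.1 and 41.9 CPM at 12 h, and 48.8 and 41.7 CPM at 18 h. It read 30.8 and 27.9 CPM at 48 h, 29.0 and 36.8 CPM at 72 h, 27.6 and 12.5 CPM at 96 h, and 26.7 and 22.5 CPM at 120 h. Every library from 48 h on was below every library of the first 3 times. The log2 fold change against 0 h was -1.26 ± 0.27 at 96 h (adjusted p = 0.00131) and -0.93 ± 0.27 at 120 h (adjusted p = 0.0104). The call at 120 h was lost without the first 0 h library (-0.67, adjusted p = 0.154) or the second 120 h library (-0.89, adjusted p = 0.0778). At 96 h the fold change was -1.997 without the first 96 h library and -0.87 without the second, and both passed.

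Syce1, of the central element, read 61.0 and 69.0 CPM at 0 h in WT, and every later WT library was above these, from 77.0 CPM to 135 CPM. The values were 93.8 and 129 CPM at 72 h, 95.9 and 103 CPM at 96 h, and 105 and 135 CPM at 120 h. Syce1 rose by a log2 fold change of 0.82 ± 0.23 at 72 h (adjusted p = 0.0211) and 0.94 ± 0.23 at 120 h (adjusted p = 0.00355). At 120 h the call was lost without the first 0 h library (0.79, adjusted p = 0.0712) or the second 120 h library (0.67, adjusted p = 0.0993). At 72 h it was lost in 3 of the 4 fits that left out a library, with log2 fold changes of 0.51 without the second 72 h library, 0.65 without the first 0 h library and 0.89 without the second 0 h library.

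Msh5 read 12.3 and 14.7 CPM at 0 h and 24.3 and 19.0 CPM at 120 h in WT, with both libraries at 120 h above all other WT libraries. Its log2 fold change at 120 h was 0.73 ± 0.26 (adjusted p = 0.0403), and the call was lost when any 1 of these 4 libraries was left out (0.54 to 0.87). Its partner Msh4 read 21.8 and 13.4 CPM at 0 h and 16.5 and 10.2 CPM at 120 h, groups that overlap. The log2 fold change of Msh4 at 120 h was -0.35 ± 0.33 (95% interval -1.03 to 0.33), and the interval of Msh5 was 0.18 to 1.28. Whether the genes of the clamp differ in their WT course was not tested.

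At single WT times, no member passed at 12, 18 or 48 h, where 10.9%, 11.9% and 12.8% of all genes did, and the counts by DESeq2 were also 0. At an unadjusted p under 0.05 there were 1, 0 and 3 members at these times. At 72 h 1 of 9 members rose (6.55% of all genes rose), and at 96 h 1 of 9 fell (14.1% of all genes fell). At 120 h 3 members rose, Tex11, Syce1 and Msh5 (14.2% of all genes rose), and 1 fell, Hfm1 (14.7% fell). Their median log2 fold change at 120 h was 0.53, and that of all genes -0.07.

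The other synaptonemal complex genes and Mlh3 passed no test against 0 h in WT. Sycp1 read 191 and 243 CPM at 0 h, 164 and 176 CPM at 18 h and 228 and 378 CPM at 120 h. Syce2 read 41.4 and 56.9 CPM at 0 h and 53.7 and 105 CPM at 12 h, the time of its highest mean. Tex12 had its highest WT mean at 12 h, with 20.4 and 31.6 CPM, and its lowest at 96 h, with 11.6 and 7.64 CPM. Mlh3 stayed in a narrow band, from 35.3 to 51.8 CPM over the 14 WT libraries, and was highest at 72 h with 51.8 and 50.7 CPM.

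WT libraries with the same replicate number came from the same count table and deviated together from their group means, so the fit with the replicate number as a block within each genotype is given where it changed a call. With it, 9 in place of 6 of the 54 member tests against 0 h passed in WT. The added ones were Hfm1 at 48 h (log2 fold change -0.72, adjusted p = 0.0306), Syce1 at 96 h (0.62, adjusted p = 0.0146) and Msh4 at 96 h (-0.80, adjusted p = 0.0350). Tex12 passed the test for any change over the WT times in that fit (adjusted p = 0.0486, against 0.0859 without the block). The shares of all genes called in the fit with the block are not given here.

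**Figure D2:**
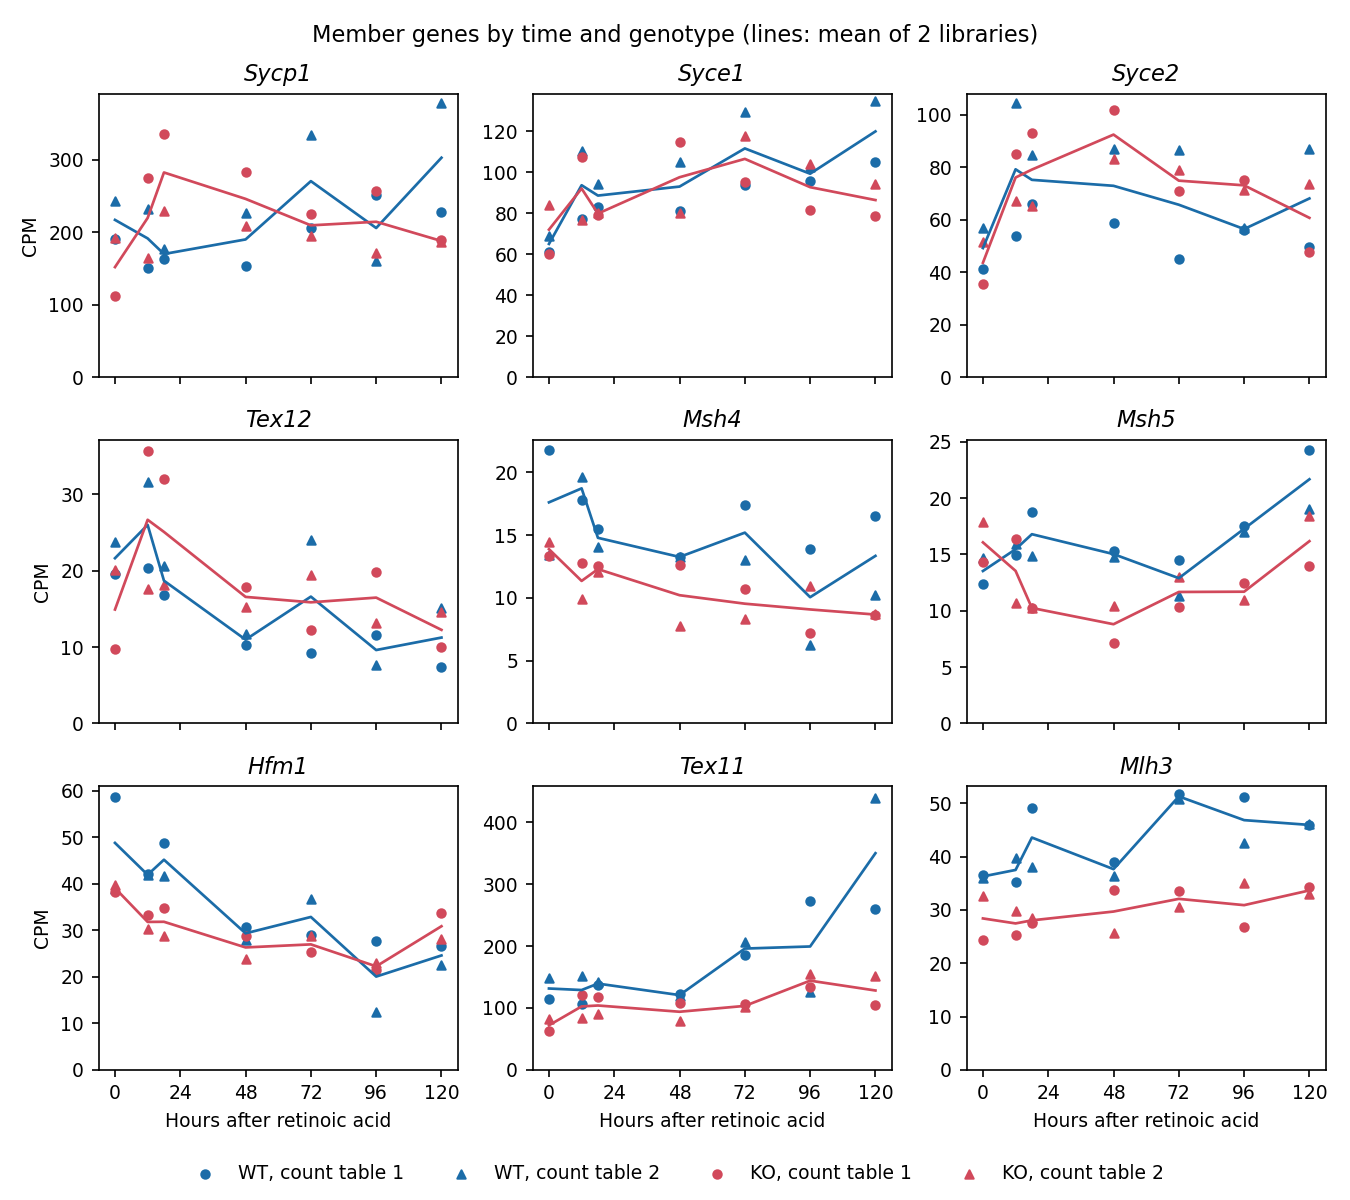
CPM of each gene (vertical axis, from 0) against hours after retinoic acid; points are single libraries, circles from the first and triangles from the second count table, and lines join the mean of 2 libraries, WT in blue and KO in red. Tex11 in WT reaches 261 and 440 CPM at 120 h, Hfm1 in WT falls from 58.7 and 38.9 CPM at 0 h, and all KO points of Mlh3 lie below the WT points of the same time.

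In KO cells no member passed the test for any change over time, where 15.8% of all genes did (edgeR; 0 of 9 at an unadjusted p under 0.05, and 0 by DESeq2). Syce2 passed it with the replicate block within genotype (adjusted p = 0.0168), with KO fitted alone (adjusted p = 0.0262) and, with 3 other members, without the expression filter. Against 0 h, 0 of 54 member tests passed, with 11 at an unadjusted p under 0.05 and 2 by DESeq2. The shares of all genes called were 8.57% at 12 h, 8.93% at 18 h, 4.51% at 48 h, 0.491% at 72 h, 1.75% at 96 h and 0.953% at 120 h. The lowest shares were at 72 and 120 h, times with a shallow library.

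Syce2 had the smallest adjusted p in KO against 0 h. It read 35.5 and 51.6 CPM at 0 h, 84.9 and 67.1 CPM at 12 h, 93.0 and 65.0 CPM at 18 h, and 102 and 83.1 CPM at 48 h. All 6 libraries from 12 to 48 h were above both at 0 h. The log2 fold change at 48 h was 1.14 ± 0.36 (adjusted p = 0.0724, edgeR), and it passed when KO libraries were fitted alone (1.12, adjusted p = 0.00686) and in DESeq2 (1.13, adjusted p = 0.0272). Fitted alone, KO also passed for Syce2 at 12 and 18 h (0.84 and 0.94), Hfm1 at 96 h (-0.88) and Tex11 at 96 h (0.94).

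Sycp1 in KO read 112 and 192 CPM at 0 h, 275 and 165 CPM at 12 h, and 336 and 229 CPM at 18 h. Both libraries at 18 h were above both at 0 h, and above both WT libraries of that time, at 164 and 176 CPM. The share of all genes with both KO above both WT libraries was not counted. The reverse order held for 32.1% of all genes at 18 h. The log2 fold change of Sycp1 in KO at 18 h was 0.98 ± 0.37 (adjusted p = 0.113, edgeR), and DESeq2 gave an adjusted p of 0.0436. Tex11 in KO read 62.1 and 81.9 CPM at 0 h, 134 and 154 CPM at 96 h, and 104 and 152 CPM at 120 h. Its log2 fold change at 96 h was 0.99 ± 0.32 (adjusted p = 0.126), and every KO library after 0 h, from 79.6 CPM up, was above the lower of the pair at 0 h.

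**Figure D3:**
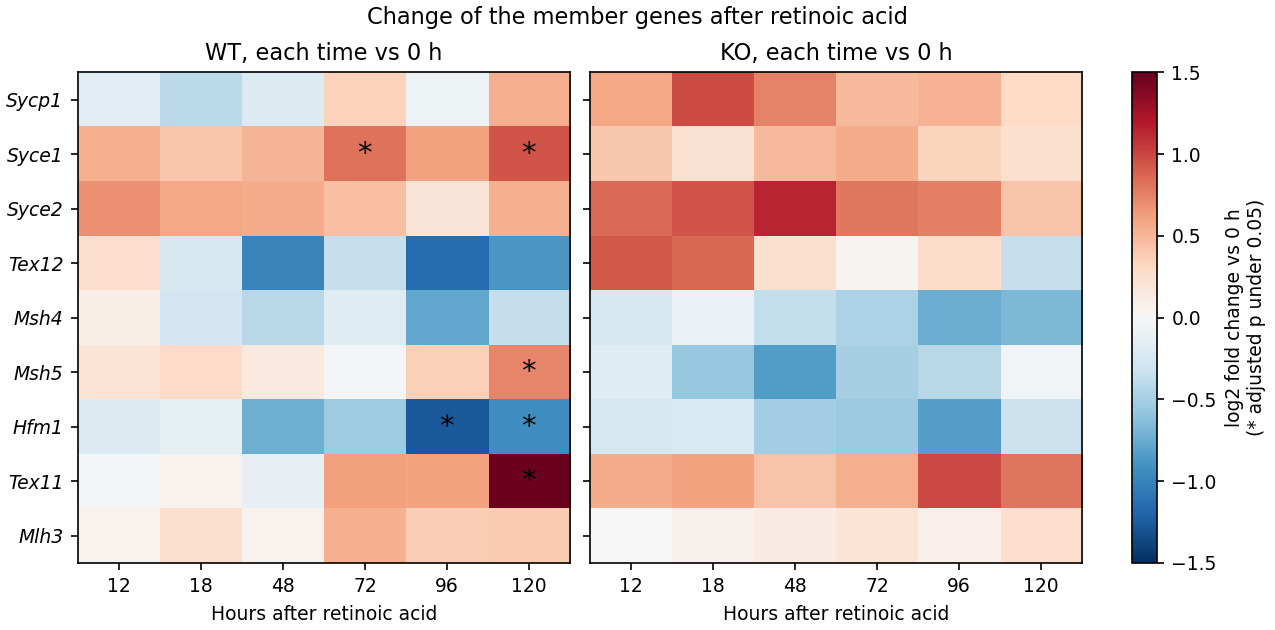
Log2 fold change of each gene (rows) at each later time (columns, hours after retinoic acid) against 0 h, in WT on the left and KO on the right; colour gives the value from -1.5 (blue) to 1.5 (red) and a star an adjusted p under 0.05 in edgeR. There are 6 stars in WT, on Syce1, Msh5, Hfm1 and Tex11, and none in KO.

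Whether the genotypes differed in their time course was tested directly, since a change that passes in WT and not in KO does not show a difference. No member passed the genotype by time test, where 0.108% of all genes did (0 of 9 at an unadjusted p under 0.05, and 0 by DESeq2). The smallest adjusted p-values were 0.561 for Sycp1 and 0.590 for Tex11. None of the 54 single-time interaction tests of members passed either, with 5 at an unadjusted p under 0.05 and 0 by DESeq2. The shares of all genes called were 0.00571% at 12 h, 0.331% at 18 h, 0.0% at 48 h, 0.0% at 72 h, 0.0114% at 96 h and 0.268% at 120 h. These results depended on the expression filter. In edgeR without it, Sycp1 (adjusted p = 8.17e-05) and Tex11 (adjusted p = 0.0138) passed the genotype by time test. Sycp1 also passed the single-time interaction test at 18 h there (1.35, adjusted p = 0.0054).

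Averaged over the 7 times, 4 of the 5 crossover genes were lower in KO, and none of the 4 synaptonemal complex genes was called. The lower ones were Tex11, Mlh3, Msh4 and Msh5, in a comparison in which 20.1% of all genes were lower and 17.4% higher. The median log2 fold change was -0.47 over the 5 crossover genes, 0.00 over the 4 synaptonemal complex genes and -0.02 over all genes. Leaving out any 1 of the 28 libraries kept these 4 calls, and 5 genes passed without the second WT library at 96 h, when Hfm1 was called too (-0.25, adjusted p = 0.0209). In bulk samples such as these, fewer cells of a type and less RNA per cell cannot be told apart.

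Mlh3, the resolving enzyme, had the smallest p. It read 36.6 and 36.0 CPM in WT against 24.3 and 32.5 CPM in KO at 0 h, 35.3 and 39.7 against 25.2 and 29.7 CPM at 12 h, and 49.1 and 38.0 against 27.6 and 28.5 CPM at 18 h. It read 39.0 and 36.3 in WT against 33.7 and 25.7 CPM in KO at 48 h, and 51.8 and 50.7 against 33.6 and 30.6 CPM at 72 h. At 96 h the values were 51.1 and 42.5 against 26.8 and 35.0 CPM, and at 120 h 45.9 and 46.0 against 34.3 and 33.0 CPM. Both KO libraries were below both WT libraries at all 7 times, and even the highest KO library, at 35.0 CPM, was below the lowest WT library, at 35.3 CPM. Such an order at all 7 times held for 0.776% of all genes. The mean log2 fold change was -0.53 ± 0.08 (SE, n = 14 libraries per genotype, adjusted p = 1.66e-05, edgeR). Same-numbered WT libraries deviated together across times, so the 14 are not 14 independent replicates. The SEs and p-values of the mean comparison, here and for the other genes, may therefore be too small.

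Tex11 was lower in KO by a mean log2 fold change of -0.72 ± 0.12 (adjusted p = 0.000109). At 0 h it read 114 and 149 CPM in WT and 62.1 and 81.9 CPM in KO, and at 120 h 261 and 440 CPM in WT and 104 and 152 CPM in KO. Both KO libraries were below both WT libraries at 0, 18, 48, 72 and 120 h, and the groups overlapped at 12 and 96 h. An order of this kind at 5 or more of the 7 times held for 8.82% of all genes. At 0 h, 19.4% of all genes had both KO below both WT libraries, and the test of Tex11 at 0 h did not pass (-0.91 ± 0.32, adjusted p = 0.710) but did without the expression filter (-0.90, adjusted p = 0.0393).

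RNA of both genes of the MSH4-MSH5 clamp was lower in KO in the mean over the 7 times. Msh4 ranged over 6.25, 13.98 and 21.8 CPM in WT (lowest, median and highest of 14) and over 7.23, 10.8 and 14.4 CPM in KO. Its mean log2 fold change was -0.47 ± 0.13 (adjusted p = 0.00750), with both KO below both WT libraries at 12, 18, 48, 72 and 120 h. Msh5 ranged over 11.3, 15.1 and 24.3 CPM in WT and over 7.15, 11.7 and 18.4 CPM in KO, with a mean log2 fold change of -0.39 ± 0.11 (adjusted p = 0.00541). For Msh5 the groups were apart at 18, 48, 96 and 120 h, and both KO libraries at 0 h, 14.3 and 17.9 CPM, stood close to or above the WT values of 12.3 and 14.7 CPM. Being apart in this direction at 4 or more times held for 16.9% of all genes.

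Hfm1 was the crossover gene not called, at a mean log2 fold change of -0.19 ± 0.10 (95% interval -0.40 to 0.03, adjusted p = 0.158). Both KO libraries were below both WT libraries at 12, 18 and 72 h, as happened at 3 or more times in 28.4% of all genes. At 120 h the order was the opposite, with 33.7 and 28.1 CPM in KO and 26.7 and 22.5 CPM in WT. The share of all genes with that opposite order was not counted.

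Among the synaptonemal complex genes the mean log2 fold change was -0.05 ± 0.14 for Sycp1 (95% interval -0.34 to 0.25), -0.11 ± 0.09 for Syce1 (-0.29 to 0.07), 0.06 ± 0.13 for Syce2 (-0.22 to 0.33) and 0.16 ± 0.18 for Tex12 (-0.21 to 0.53). The adjusted p-values were 0.821, 0.327, 0.778 and 0.512. Each interval holds values of both signs, so no difference was detected, and differences of either sign within the intervals are not excluded. None of the 4 had an unadjusted p under 0.05, and DESeq2 called 0.

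The synaptonemal complex values differed between the count tables, each of which holds 1 library of every group. Fitted in each table alone, an analysis chosen after the data were seen, the 5 crossover genes were lower in KO in both tables: -0.59 and -0.78 for Tex11, -0.57 and -0.44 for Mlh3, -0.57 and -0.34 for Msh4, -0.47 and -0.28 for Msh5, and -0.25 and -0.13 for Hfm1. Of these, 4 passed in the first table and 2, Tex11 and Mlh3, in the second. With all 28 libraries 20.1% of all genes were lower in KO, and the shares within each table alone are not given here. The 4 synaptonemal complex genes all had positive values in the first table and negative ones in the second: 0.29 and -0.35 for Sycp1, 0.05 and -0.24 for Syce1, 0.41 and -0.22 for Syce2, and 0.48 and -0.14 for Tex12. Syce2 passed in the first table (adjusted p = 0.0197) and none of the 4 in the second.

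In WT, libraries of the second table were above those of the first at 7 of 7 times for Syce1 and Syce2 and at 6 of 7 for Sycp1 and Tex12. In KO this was so at 5 times for Syce1, 3 for Syce2, 1 for Sycp1 and 3 for Tex12. The share of reads on mitochondrial genes moved with the WT tables too: it was 1.98 to 3.06% in the first and 3.21 to 6.79% in the second, against 4.55 to 8.55% and 4.73 to 8.44% in KO. Its part in the result was not tested. The numbering of KO libraries differed between the deposited tables, so which KO library belongs with which WT library is not settled.

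**Figure D4:**
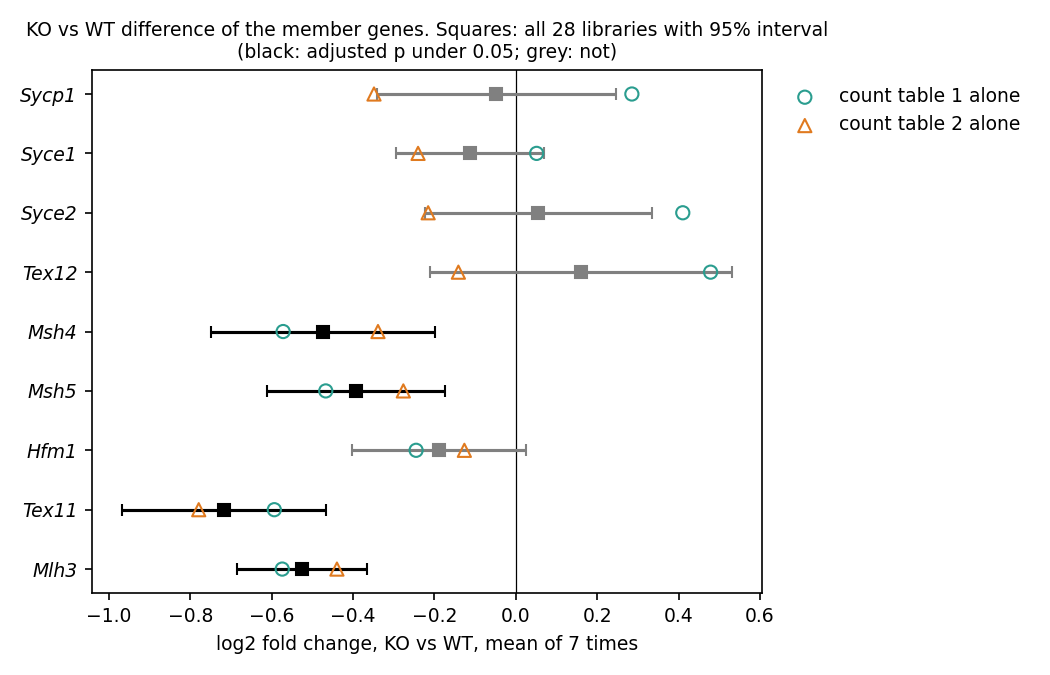
Log2 fold change of KO against WT, mean of the 7 times (horizontal axis), for each gene: squares with 95% intervals from all 28 libraries (black, adjusted p under 0.05 in edgeR; grey, not), circles and triangles from the first and the second count table alone. Squares, circles and triangles of the 5 crossover genes all lie below 0, while circles of the 4 synaptonemal complex genes lie above 0 and their triangles below.

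At single times, KO against WT was called for 2 members in edgeR. Tex11 at 72 h was not called (-0.98 ± 0.32, adjusted p = 0.0840). It passed there in DESeq2 (-0.95, adjusted p = 0.0462) and in edgeR without the expression filter (-0.97, adjusted p = 0.00272). Mlh3 was lower at 72 h (-0.72 ± 0.21, adjusted p = 0.0483), when 2.12% of all genes were lower. That call was lost in the 4 fits that left out 1 library of these groups (-0.62 to -0.88), and in 5 of 8 other settings, among them DESeq2 (-0.68, adjusted p = 0.0537), with a highest adjusted p of 0.269 without the shallow libraries. Tex11 was lower at 120 h (-1.58 ± 0.32, adjusted p = 0.00328), when 6.88% of all genes were lower. It was lost without the second WT library (-1.13, adjusted p = 0.0634) or the first KO library (-1.42, adjusted p = 0.0629), and with only the groups compared (adjusted p = 0.0501).

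No member passed at 0, 12, 18, 48 or 96 h, where 0.0%, 1.18%, 4.14%, 0.308% and 4.47% of all genes did. At these times 1, 2, 3, 1 and 1 members had an unadjusted p under 0.05, and DESeq2 called 0, 0, 0, 0 and 1, the last being Mlh3 at 96 h. Mlh3 at 96 h also passed with the replicate block within genotype (-0.69, adjusted p = 0.0402), and Sycp1 at 18 h was higher in KO when only the groups compared were fitted (0.82, adjusted p = 0.0239) or without the expression filter (0.80, adjusted p = 0.0139). At 120 h 8 of the 9 members had a negative fold change, all but Hfm1, with a median of -0.56 against -0.02 over all genes. Sycp1 was among the 8, at -0.79 ± 0.37 (adjusted p = 0.160, edgeR). Without the expression filter Sycp1 was called lower in KO at 120 h (-0.82, adjusted p = 0.00519), the reverse of its direction at 18 h.

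For KO at 72, 96 and 120 h a deeper set of values existed, since 3 deposited CPM columns matched none of the count columns and gave totals of 4479729, 4190650 and 4122223 reads when turned back into whole reads. Their chi-square per degree of freedom against the shallow libraries was 4.83, 4.08 and 4.64, more than counting error alone gives. Whether these values come from the same material as the shallow libraries is not settled. Put in place of the shallow libraries, they gave Tex11 94.5, 135 and 142 CPM, against 101, 154 and 152 CPM from the shallow counts. Msh5 at 120 h read 11.4 CPM from 47 recovered reads and 18.4 CPM from 19 counted reads. With these values 5 tests at single times passed in place of 2: Mlh3 at 72, 96 and 120 h (-0.68, -0.70 and -0.58), and Msh5 (-0.81) and Tex11 (-1.57) at 120 h. The same 4 crossover genes passed in the mean over the 7 times. The shares of all genes called with the recovered values are not given here.

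Markers of other cells moved with genotype and time as well. For the counts below, 17.4% of all genes were higher and 20.1% lower in KO in the mean comparison, and 14.7% fell in WT at 120 h. Of 6 Sertoli cell markers, 5 were higher in KO in the mean comparison, and their sum ranged from 18.3 to 59.8 CPM in WT and from 34.0 to 152 CPM in KO. Of 5 myoid and stromal markers 2 were higher in KO, with sums of 63.9 to 342 CPM in WT and 113 to 457 CPM in KO. Of 6 markers of undifferentiated spermatogonia, 5 were higher in KO (sums 371 to 1650 CPM in WT and 808 to 1548 CPM in KO), and all 6 fell in WT at 120 h, the time at which Tex11, Syce1 and Msh5 rose. Leydig cell markers summed to at most 9.07 CPM in WT and 14.8 CPM in KO, with Insl3 at 0 in all libraries, and leukocyte markers to at most 5.04 and 6.48 CPM. Of the 4 pachytene spermatocyte markers tested, 1 was lower in KO, Ccna1 (-0.96 ± 0.27, adjusted p = 0.00775), and of 5 germ cell markers 2 were higher and 1 lower. Endothelial markers summed to 5.60 to 36.3 CPM in WT and 13.1 to 31.4 CPM in KO; 1 of 3 was higher in KO and all 3 fell in WT at 120 h. Their part in the member results was not tested.

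Other genes of the same machinery moved in both directions. Of 17 further synaptonemal complex and crossover genes, 5 rose and 2 fell in WT at 120 h (median -0.00), and 2 were higher and 7 lower in KO over the mean of the times (median -0.18). Of all genes, 14.2% rose and 14.7% fell in the first comparison, and 17.4% were higher and 20.1% lower in the second. Cdk2, a kinase found at crossover sites, rose by 1.14 ± 0.19 in WT at 120 h (adjusted p = 0.000146) and was lower in KO by -0.29 ± 0.07 (adjusted p = 0.00354). Exo1, a nuclease, rose by 0.60 ± 0.17 (adjusted p = 0.0117) and did not differ detectably by genotype (0.01 ± 0.07). Prr19, of the late crossover factors, fell by -0.72 ± 0.19 in WT (adjusted p = 0.00666) and was higher in KO by 0.45 ± 0.07 (adjusted p = 6.05e-05).

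Of 6 mismatch repair genes, none passed in WT at 120 h (edgeR, with 0 at an unadjusted p under 0.05 and 0 by DESeq2) and 5 were lower in KO (median -0.28). Of all genes, 28.9% passed in WT at 120 h and 20.1% were lower in KO. Pms2 was lower by -0.34 ± 0.07 (adjusted p = 0.000400) and Pms1 by -0.33 ± 0.10 (adjusted p = 0.0112), while Msh6 was at -0.06 ± 0.06.

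Among 16 genes of break formation and strand exchange, 6 rose and 5 fell in WT at 120 h, and 2 were higher and 7 lower in KO. The shares of all genes were 14.2% and 14.7% in WT, and 17.4% and 20.1% in KO, here and for the lists that follow. Prdm9, which marks sites of meiotic breaks, rose by 3.51 ± 0.45 (adjusted p = 7.66e-06) and was lower in KO by -1.18 ± 0.17 (adjusted p = 1.59e-05). Mei1, needed for break formation, rose by 1.86 ± 0.22 in WT, and Ccdc36, whose current name is Iho1, by 1.25 ± 0.21. Of 6 cohesin and axis genes, 2 rose and 1 fell at 120 h: Smc1b by 1.51 ± 0.24, Stag3 by 0.81 ± 0.18 and Rad21l by -0.92 ± 0.31. In KO, 1 of these 6 was higher and 3 lower over the mean of the times (median -0.29). Of the 4 genes of meiotic initiation 3 were lower in KO, but this count includes Stra8, the knocked-out gene, whose lower level was set by the design. Of 4 genes of meiotic initiation, Ythdc2 (1.83 ± 0.23) and Meioc, listed as Gm1564 (2.49 ± 0.33), rose at 120 h. Gm4969, which RefSeq names Bhmg1 and which encodes MEIOSIN, did not pass (0.59 ± 0.26, adjusted p = 0.0994). The rise of Tex11, at 1.47, was thus near that of Smc1b.

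The members did not follow a common course. Over the 28 libraries, Pearson's r of log2(CPM + 1) between members ran from -0.42 for Syce1 and Hfm1 to 0.75 for Msh4 and Hfm1, with 0.74 for Tex11 and Mlh3 and 0.63 for Syce1 and Syce2. The libraries share groups, count tables and depth, so these values only describe them. The genes outside the members with the pattern most like each one, among 11816 named genes, were Usp26 (r = 0.93) and Snx16 (0.91) for Tex11, and Topaz1 (0.90) and Fsd1l (0.86) for Hfm1. For the synaptonemal complex genes they were Rps27l (0.88) and Pno1 (0.85) for Sycp1, Nasp (0.88) and Tra2a (0.87) for Syce1, Eif1ax and Dkc1 (both 0.88) for Syce2, and Nup37 (0.89) and Nxf2 (0.88) for Tex12. Golga1 and Hace1 (both 0.87) were nearest to Mlh3, Ccdc138 (0.83) and Arfgef1 (0.80) to Msh4, and Glrb (0.77) and Clstn2 (0.74) to Msh5.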

How the data were processed

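Raw counts for gene symbols were deposited by the authors as 2 tables with 1 library of each group apiece, beside 2 tables named as FPKM whose values were CPM: 25 of 28 columns matched a deposited count column, scaled to its total, to within 0.001 CPM. KO columns carried the opposite number there, and 3 matched no count column. TopHat, Bowtie, Cufflinks and build mm10 are named per the submitters' processing notes; the sources used here do not state versions, the counting program or strand use. Counts were fitted with edgeR 4.0.16 in R 4.3.3 (TMM, default expression filter, 14 group means over all 28 libraries, robust quasi-likelihood), with p-values adjusted over 17519 genes per comparison; 27 date-like names were left out of the fits. DESeq2 1.42.0 was an alternative. The test was checked on simulated data. The values of 1 list gene are not reported here. CPM in the text is count per column total. The members, gene lists and tests were chosen with earlier results of these data known. Named genes were the 9 members, Stra8, the 3 genes of each list with the smallest p in WT at 120 h and, for the interaction test, those with the smallest p, and 2 most alike genes per member whose mean reached 5 CPM in a group.

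The replicate numbers paired WT libraries: over 21 pairs of groups, same-numbered libraries' deviations correlated at 0.26 to 0.52. KO numbers did not (-0.14 to 0.57). In the first count table, WT reads outside any feature made up 27.1 to 33.1%, ambiguous reads 0.68 to 0.78% and reads aligned at several places 14.3 to 16.2%. Counting error alone limits a count of 0 to 3 reads.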

Additional observations from a re-analysis of the deposited data

How the results depend on the processing

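The 9 alternatives were planned, apart from fitting each count table alone. In the mean KO against WT comparison 4 members passed with every other scaling, filter, test, block and choice of KO libraries tried and 4 to 5 when 1 library was left out; the first table alone gave 5, Syce2 as a higher one, and the second 2. Members changed over time in WT numbered 5 without the expression filter and 2 to 4 when 1 library was left out; in KO they numbered 4 without the filter, 1 with KO fitted alone and 1 with the replicate block within genotype. Tests against 0 h in WT passed 2 to 7 times when 1 library was left out. In KO they passed 6 times without the filter, 2 in DESeq2, 2 with the replicate block, 3 with the block within genotype, 5 with KO fitted alone, 1 with recovered reads, and 0 when any 1 KO library was left out. KO against WT at single times gave 1 call with DESeq2 size factors, 5 without the filter, 4 with the block within genotype, 1 with only the groups compared, 1 without the shallow libraries, 5 with recovered reads and 0 to 3 when 1 library was left out. The interaction test called 2 members without the filter, Sycp1 and Tex11. Reversed signs arose in small mean differences: Syce1 0.051 and Sycp1 0.29 in the first table alone, Syce2 -0.22 and Tex12 -0.14 in the second, and Sycp1 0.025 without the shallow libraries. With 1 library left out, Sycp1 ran from -0.13 to 0.017 and Syce2 from -0.015 to 0.13. A group with 1 library left was assumed to vary like the others. With the replicate block within genotype, Mlh3 at 96 h and Syce1 at 120 h joined the calls of KO against WT, and Syce2 at 12, 18 and 48 h those of KO against 0 h. The cause of these changes was not tested. Depth limits Msh4, Msh5 and Tex12 most in the 3 shallow KO libraries, where 3 reads are worth 2.78 to 3.28 CPM.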
